A study of Mus musculus with 6 samples.

Results

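The nuclear genes of respiratory complexes II, III, IV and V, with cytochrome c, were followed in spleen RNA of NOD mice. Members were the probes of the authors' deposited table whose symbol is Sdha to Sdhd, begins with Uqc, Cox4 to Cox8 or Atp5, or is Cyc1 or Cycs. This gave 76 of 31692 probes, which stand for 49 of 16361 symbols: 4 genes of complex II, 12 of complex III, 14 of complex IV, 18 of complex V and Cycs. Of the complex V symbols, 1 is a pseudogene, Atp5c1-ps. All mice were female NOD, a strain that develops autoimmune diabetes spontaneously, entered at 6 weeks of age and were killed at 18 weeks after fasting for 16 to 18 h. Treated mice received MOTS-c, a peptide whose reading frame lies in mitochondrial DNA, by daily intraperitoneal injection of 0.5 mg/kg/day. Control mice, called vehicle here, received a scrambled version of the peptide. Each group had 3 samples, read as vehicle 1 to 3 and MOTS-c 1 to 3 on 1-colour Agilent arrays. Vehicle 1 and 2 shared a slide, and vehicle 3 shared the other slide with all 3 MOTS-c arrays.

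The respiratory chain sits in the inner mitochondrial membrane. Complex II, the only complex with no subunit encoded in mitochondrial DNA, feeds electrons from succinate into ubiquinone, complex III passes them to cytochrome c, and complex IV hands them to oxygen. Complexes III and IV pump protons, and complex V, the ATP synthase, lets the protons back through its membrane part Fo and makes ATP in its catalytic part F1. Each complex mixes catalytic subunits with small structural ones, and complex IV has spare isoforms of some subunits that are known from heart, muscle, lung or testis. Binding sites of the factors NRF1 and GABP, which is of the ETS family, and of YY1 are known from the promoters of many of these genes.

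Promoter windows of 300 bases around an annotated start were held by RefSeq (GRCm38.p6) for 38 of the 49 members. The NRF1 core CGCATGCG, searched on both strands, occurred for 8 of these 38 members (21.1%) and for 2.07% of 27025 genes with a window. The ETS core CCGGAAG was found for 12 members (31.6%) against 9.93% of all genes, and the YY1 core AAGATGGCG in 3 (7.89%) against 1.64%. The 8 members with the NRF1 core were Uqcr11, Uqcrc1, Cycs, Cox6a1, Atp5g2, Atp5j, Atp5k and Atp5l, so no window of complex II held it. To show such a promoter from each group that has any, 4 of them are printed 5′ to 3′ from position -240 to position 10 of the annotated start, with NRF1 and ETS cores of either strand in capitals. They lie on the minus strand at chr10:80406812-80407061 (Uqcr11, complex III), chr6:50566560-50566809 (Cycs), chr5:115348949-115349198 (Cox6a1, complex IV) and chr5:108434390-108434639 (Atp5k, complex V).
Uqcr11: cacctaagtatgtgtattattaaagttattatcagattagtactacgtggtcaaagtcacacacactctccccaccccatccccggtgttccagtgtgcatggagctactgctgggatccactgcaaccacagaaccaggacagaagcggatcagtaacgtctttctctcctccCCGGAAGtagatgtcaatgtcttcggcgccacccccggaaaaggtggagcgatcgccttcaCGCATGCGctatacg
Cycs: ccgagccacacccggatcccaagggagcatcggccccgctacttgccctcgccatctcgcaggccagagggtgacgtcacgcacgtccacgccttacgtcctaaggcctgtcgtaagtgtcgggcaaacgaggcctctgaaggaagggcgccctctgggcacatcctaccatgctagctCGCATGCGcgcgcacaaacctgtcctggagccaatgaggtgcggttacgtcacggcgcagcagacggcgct
Cox6a1: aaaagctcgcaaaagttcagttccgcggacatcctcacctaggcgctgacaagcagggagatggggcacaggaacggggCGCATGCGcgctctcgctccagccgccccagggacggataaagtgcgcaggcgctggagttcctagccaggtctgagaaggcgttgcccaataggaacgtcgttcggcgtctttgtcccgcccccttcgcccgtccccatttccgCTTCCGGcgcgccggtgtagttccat
Atp5k: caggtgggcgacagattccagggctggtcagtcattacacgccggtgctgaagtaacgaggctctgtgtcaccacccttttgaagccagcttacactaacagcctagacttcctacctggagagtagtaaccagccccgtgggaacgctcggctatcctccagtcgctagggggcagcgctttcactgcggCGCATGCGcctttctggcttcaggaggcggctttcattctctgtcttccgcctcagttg
A match shows only that these letters are present. The median difference between groups was -0.40 for the 8 members with the NRF1 core and -0.42 for the others with a window, on the log2 scale used below.

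Levels are log2 signals from which the 75th percentile of the array was subtracted, so that 0 is the signal of that percentile, and a difference is MOTS-c minus vehicle. The authors' quantile-normalized columns, which force the 6 arrays to a common distribution, serve as a second scale. Members were bright: 44 of 49 lay above the 75th percentile, and the median member was at 4.63 against -0.49 for all 22516 genes tested. Each array had 59305 non-control spots, of which 61.8% to 64.0% were well above background, and 0 saturated spots. Arrays give no molecule count, so 3 arrays per group set the precision of every value.

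Most members were lower with MOTS-c, mostly by a modest amount, and no single member passed the test. Of 49 members, 43 had a lower mean with MOTS-c and 6 a higher one, where 48.1% of all tested genes were lower. The median member difference was -0.39, a level 1.31 times lower, against 0.02 over all genes. Member differences ran from -1.41 for Cox6b2 to 1.25 for Cox6a2. In 37 members, 75.5% of them, all 3 MOTS-c values lay below all 3 vehicle values, against 18.6% of all genes, and in 1 member, Uqcc3, they lay above, against 16.2%. By limma with Benjamini-Hochberg adjustment over all genes, 0 members had an adjusted p under 0.05, where 0.00888% of all genes, 2 in number, did. At an unadjusted p under 0.05, limma had 23 members lower, against 13.9% of genes, and 0 members higher, against 11%. Among the 10091 genes above the 75th percentile, 26.6% had all MOTS-c values below vehicle and 17.8% were lower at that p. With a prior variance that follows the signal, limma called 379 genes (1.68%) and again 0 members, the smallest adjusted p of a member being 0.0554. In whole spleen, fewer cells of a type and less RNA per cell cannot be told apart.

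**Figure D1:**
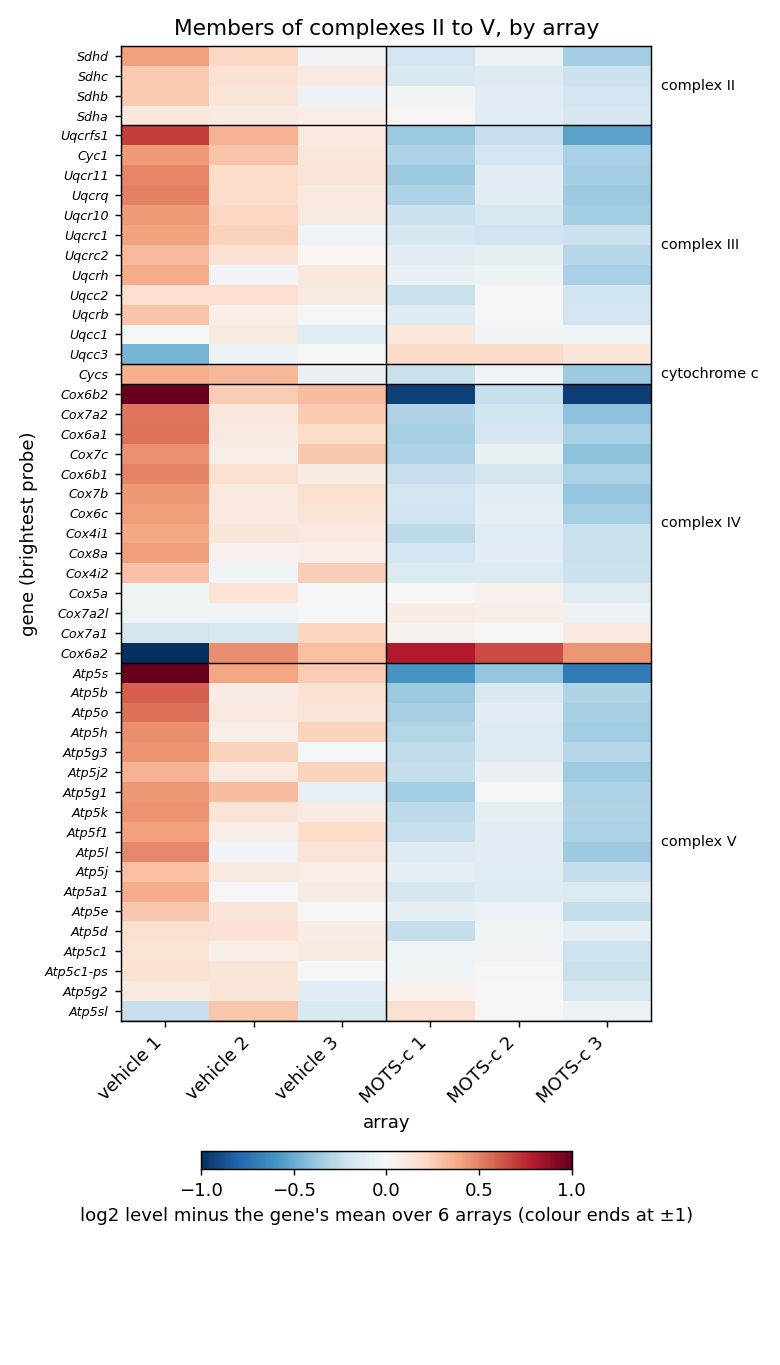
Level of each of the 49 members (rows, grouped by complex and ordered by difference) on the 6 arrays (columns), as log2 level minus the gene's mean over the 6 arrays, with the colour scale ending at -1 and 1. Vehicle columns are mostly above the gene's mean and MOTS-c columns mostly below it, and 37 members have all 3 MOTS-c values below all 3 vehicle values.

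The direction was shared by the subunits that every cell uses and was not general among the other members. All 38 ubiquitous subunits, cytochrome c included, had a lower mean with MOTS-c, 33 of them without overlap between groups, with a median difference of -0.42. In the quantile-normalized columns 32 of 38 were lower, 20 without overlap, with a median of -0.20. Of all genes, 18.6% were lower without overlap on the 75th percentile scale and 16.4% in these columns. Among genes brighter than the median member these shares were 40.3% and 17.8%. The remaining 11 members are assembly or associated factors, tissue-restricted isoforms and the pseudogene. Of these, 5 were lower and 6 higher, with a median of 0.03.

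Complex II, succinate dehydrogenase, had the smallest median difference of the 4 complexes, -0.27, with 4 of 4 genes lower and 2 of 4 in the quantile-normalized columns. Sdhc and Sdhd anchor the enzyme in the membrane. Sdhc (mm9 chr1:173059539-173059598) read 2.02, 1.91 and 1.85 on the vehicle arrays and 1.61, 1.64 and 1.55 with MOTS-c, a difference of -0.33 ± 0.13 (SE, n = 3 per group; limma adjusted p = 0.186). Sdhd was at 4.46, 4.26 and 4.03 with vehicle against 3.86, 3.99 and 3.71 with MOTS-c, a difference of -0.39 ± 0.17 (limma adjusted p = 0.203). Neither anchor overlapped between the groups, with vehicle 1 the highest array in both. Of the 4 genes, 3 (75%) were lower without overlap, against 18.6% of all genes. In the quantile-normalized columns only 1 (25%) was, Sdhc, against 16.4% of all genes. Sdha, the flavoprotein that oxidises succinate, was at 4.02, 3.99 and 3.98 with vehicle and 3.93, 3.81 and 3.75 with MOTS-c, and Sdhb, the iron-sulphur protein, at 5.21, 5.07 and 4.89 against 4.92, 4.83 and 4.75. Their differences of -0.17 ± 0.13 and -0.22 ± 0.15 were hardly larger than their errors, and the groups overlapped for Sdhb.

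Sdha had the most probes of any member, and they did not share a sign. Its 4 probes gave -0.17 for the brightest, at chr13:74460310-74460369, then -0.05, -0.01 and 0.30. The probe with 0.30 lies at chr13:74486662-74486720 and is designed on another transcript record. It read -1.41, -1.52 and -1.53 with vehicle and -1.18, -1.33 and -1.05 with MOTS-c, so there all 3 MOTS-c arrays were above vehicle. Over all 4 probes the mean difference of Sdha was 0.02.

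Complex III has 2 catalytic subunits among the members, which carry electrons from ubiquinone to cytochrome c. Of these, Uqcrfs1 had the lowest difference of the complex, while Cyc1 was close to the small subunits Uqcr11 and Uqcrq. Uqcrfs1, the Rieske iron-sulphur protein (chr13:30632363-30632422), was at 4.54, 4.19 and 3.94 with vehicle and 3.47, 3.61 and 3.30 with MOTS-c. The difference was -0.76 ± 0.19, a level 1.69 times lower (limma adjusted p = 0.0998). Cyc1, cytochrome c1, read 5.23, 5.08 and 4.92 against 4.50, 4.61 and 4.48, a difference of -0.55 ± 0.14 (limma adjusted p = 0.106), and its other probe gave -0.49. In both genes every MOTS-c array lay below every vehicle array. The 7 core and small subunits were all lower without overlap, against 18.6% of all genes, with differences from -0.22 to -0.54 and a median of -0.39. In the quantile-normalized columns 6 of 7 were lower, 3 (42.9%) without overlap, against 16.4% of all genes, with a median of -0.21. Among these, Uqcr11 went from 5.02, 4.71 and 4.66 to 4.17, 4.43 and 4.19 (-0.54 ± 0.16) and Uqcrq from 6.25, 5.93 and 5.85 to 5.43, 5.64 and 5.38 (-0.52 ± 0.16). Both are small subunits of the membrane part. At the other end stood Uqcrb, known as the ubiquinone-binding protein, with 4.41, 4.19 and 4.12 against 4.00, 4.12 and 3.94 (-0.22 ± 0.15).

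Uqcrb had 3 probes, of which both that are designed on its coding transcript record were lower with MOTS-c and another, dim probe on a different record was 0.17 higher. The coding-record probes share 23 bases of the genome, chr13:67001691-67001713 (mm9), and differ there at 1 base, G11A counted from the 5′ end, shown in capitals with the probe of the difference -0.37 first and that of -0.22 second.
Uqcrb probe with -0.37: aggagagagaGgagtgggcaaag
Uqcrb probe with -0.22: aggagagagaAgagtgggcaaag
Both differences had the same sign, and neither probe passed the test.

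The assembly factors of complex III were split: Uqcc2 was lower without overlap, as the subunits were, Uqcc3 was higher and Uqcc1 was near 0. Uqcc2, which helps to mature cytochrome b, was at 2.62, 2.62 and 2.54 with vehicle and 2.23, 2.44 and 2.25 with MOTS-c (-0.29 ± 0.13). Uqcc3 (chr19:8954783-8954842), another assembly factor, was the only member with all 3 MOTS-c arrays above vehicle on this scale, at 3.70, 3.69 and 3.63 against 3.04, 3.45 and 3.50, a difference of 0.34 ± 0.17 (limma adjusted p = 0.247). Vehicle 1 was its lowest array, and the difference was 0.19 without it. Uqcc1 lay between -0.16 and 0.06 on all 6 arrays, with a difference of 0.03 ± 0.14 for its brightest probe.

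Cytochrome c, the soluble carrier between complexes III and IV, was read by 2 probes of Cycs. The brighter, at chr6:50515092-50515151, gave 4.58, 4.55 and 4.15 with vehicle and 4.00, 4.19 and 3.86 with MOTS-c, a difference of -0.41 ± 0.18 (limma adjusted p = 0.208), with MOTS-c 2 just above vehicle 3. The other probe, on the same transcript record, gave 2.00, 2.19 and 2.02 against 2.00, 2.20 and 1.80, a difference of -0.06. Both probes had the same sign and differed in size. Cyct, the testis form of cytochrome c, was well above background on 0 arrays.

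In complex IV the ubiquitous subunits shared a direction. All 9 had a lower mean with MOTS-c, 8 (88.9%) without overlap between groups, against 18.6% of all genes, with a median of -0.46. In the quantile-normalized columns 8 of 9 were lower, 8 without overlap, against 16.4% of all genes, with a median of -0.23. Cox7a2 was at 5.46, 5.04 and 5.18 with vehicle and 4.63, 4.72 and 4.52 with MOTS-c (-0.60 ± 0.16, limma adjusted p = 0.108). Cox6a1 read 7.89, 7.44 and 7.54 against 7.01, 7.18 and 7.03 (-0.55 ± 0.17), and Cox7c 3.91, 3.51 and 3.73 against 3.15, 3.39 and 3.05 (-0.52 ± 0.17). Vehicle 1 was the highest array in all 3 genes, and the lowest vehicle array still lay above the highest MOTS-c array. The exception among the 9 was Cox5a, a subunit of the matrix side, with 5.52, 5.70 and 5.54 against 5.55, 5.60 and 5.44 and a difference of -0.05 ± 0.13. Cox7a2l, which is not a fixed subunit but joins complexes III and IV into supercomplexes, was at 6.22, 6.23 and 6.25 against 6.35, 6.33 and 6.20 (0.06 ± 0.13), and at a difference of 0.27 ± 0.13 in the quantile-normalized columns.

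The tissue-restricted isoforms of complex IV went different ways. Cox6b2, known from testis (chr7:4703488-4703547), was at 2.88, 1.60 and 1.66 with vehicle and 0.41, 1.11 and 0.40 with MOTS-c, a difference of -1.41 ± 0.38 and so 2.65 times lower (limma adjusted p = 0.113). Its ubiquitous partner Cox6b1 was at 2.48, 2.14 and 2.05 against 1.74, 1.79 and 1.66, a difference of -0.49 ± 0.16. Neither gene overlapped between the groups. Vehicle 1 stood above the other arrays for both, and without it the difference was -0.99 for Cox6b2 and -0.36 for Cox6b1. Cox4i2, the form known from lung and hypoxia, was at -1.22, -1.55 and -1.26 against -1.65, -1.65 and -1.73 (-0.33 ± 0.15). Its partner Cox4i1 was at 6.09, 5.83 and 5.81 against 5.44, 5.58 and 5.48 (-0.41 ± 0.14).

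The heart and muscle isoforms did not have this direction. Cox7a1 was at -2.77, -2.75 and -2.37 with vehicle and -2.55, -2.59 and -2.49 with MOTS-c, a difference of 0.09 ± 0.16. Cox6a2 read -4.50, -1.38 and -1.55 against -1.05, -1.20 and -1.41, and its difference of 1.25 ± 0.78 rested on vehicle 1: without that array it was 0.24. Of the isoforms outside the authors' table, Cox7b2 and Cox8c were well above background on 0 arrays, and Cox8b on 1 vehicle array and 2 MOTS-c arrays. No direction can be given for these 3.

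**Figure D2:**
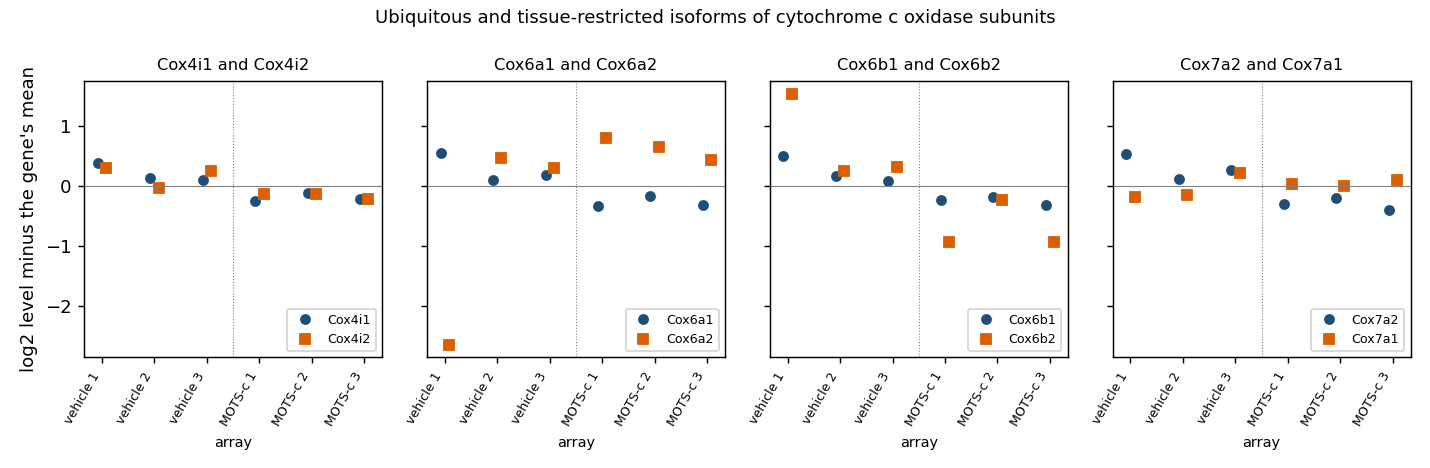
Ubiquitous (circles) and tissue-restricted (squares) isoforms of 4 complex IV subunits on the 6 arrays, as log2 level minus the gene's mean over the 6 arrays. The ubiquitous isoforms are lower on every MOTS-c array than on every vehicle array, Cox6b2 and Cox4i2 as well, while Cox6a2 is set apart by its value on vehicle 1 (-4.50 on the level scale) and Cox7a1 overlaps between groups.

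In complex V, 17 of 18 members were lower with MOTS-c, 14 (77.8%) without overlap, against 18.6% of all genes, with a median of -0.42. In the quantile-normalized columns 15 of 18 were lower, 7 (38.9%) without overlap, against 16.4% of all genes, with a median of -0.20. The catalytic part F1 had 5 of 5 subunits lower without overlap, with a median of -0.26. In the quantile-normalized columns 4 of 5 were lower, 1 (20%) without overlap, near the 16.4% of all genes, with a median of -0.07. Of genes brighter than the median member, 40.3% were lower without overlap on the 75th percentile scale and 17.8% in these columns. Atp5b, its catalytic beta subunit (chr10:127527255-127527314), led them at 6.74, 6.23 and 6.29 against 5.77, 5.99 and 5.84 (-0.55 ± 0.18, limma adjusted p = 0.141), and its 3 probes gave -0.47 to -0.57. The alpha, gamma, delta and epsilon subunits had smaller differences, from -0.19 for Atp5c1 to -0.30 for Atp5a1.

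The membrane part Fo and the stalks carry the proton path and hold F1 in place. Of their subunits 10 of 10 were lower, 8 (80%) without overlap, against 18.6% of all genes, with a median of -0.44. Of these 10, 9 were lower in the quantile-normalized columns, 5 (50%) without overlap, against 16.4% of all genes, with a median of -0.20. Atp5o, the oligomycin sensitivity conferring protein at the top of the outer stalk, was at 6.14, 5.69 and 5.72 with vehicle and 5.26, 5.48 and 5.26 with MOTS-c (-0.52 ± 0.17). Atp5h, stalk subunit d, was at 6.41, 6.02 and 6.17 against 5.65, 5.82 and 5.60 (-0.51 ± 0.16). In both, vehicle 1 was the highest array and the groups did not overlap.

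Subunit c, the ring that turns as protons pass, is encoded by 3 genes for the same mature protein. Atp5g1 read 5.07, 4.93 and 4.55 against 4.28, 4.62 and 4.32 (-0.44 ± 0.19). Atp5g3 was at 6.04, 5.83 and 5.58 against 5.34, 5.46 and 5.31 (-0.45 ± 0.16). Atp5g2 was at 6.16, 6.19 and 5.96 against 6.11, 6.07 and 5.90, a difference of -0.07 ± 0.14. The groups overlapped for Atp5g1 and Atp5g2 and were apart for Atp5g3. Atp5g3 also had a dim second probe, designed on another record at chr2:73746848-73746907, where MOTS-c was 0.16 higher.

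Atp5s, also called Dmac2l and known as factor B of the synthase, had the smallest p among the members and is no fixed subunit. It was a dim gene (chr12:70842700-70842759) at -0.81, -1.46 and -1.60 with vehicle and -2.44, -2.25 and -2.55 with MOTS-c, a difference of -1.12 ± 0.23 and so 2.18 times lower (limma adjusted p = 0.0880). All 3 MOTS-c arrays were below all vehicle arrays. Its relative Atp5sl, or Dmac2, which takes part in complex I assembly, was at 2.13, 2.64 and 2.21 against 2.51, 2.37 and 2.30 (0.07 ± 0.18). The pseudogene Atp5c1-ps, at -0.17 ± 0.14, was close to Atp5c1 at -0.19 ± 0.13, and the probes were not tested for shared signal.

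**Figure D3:**
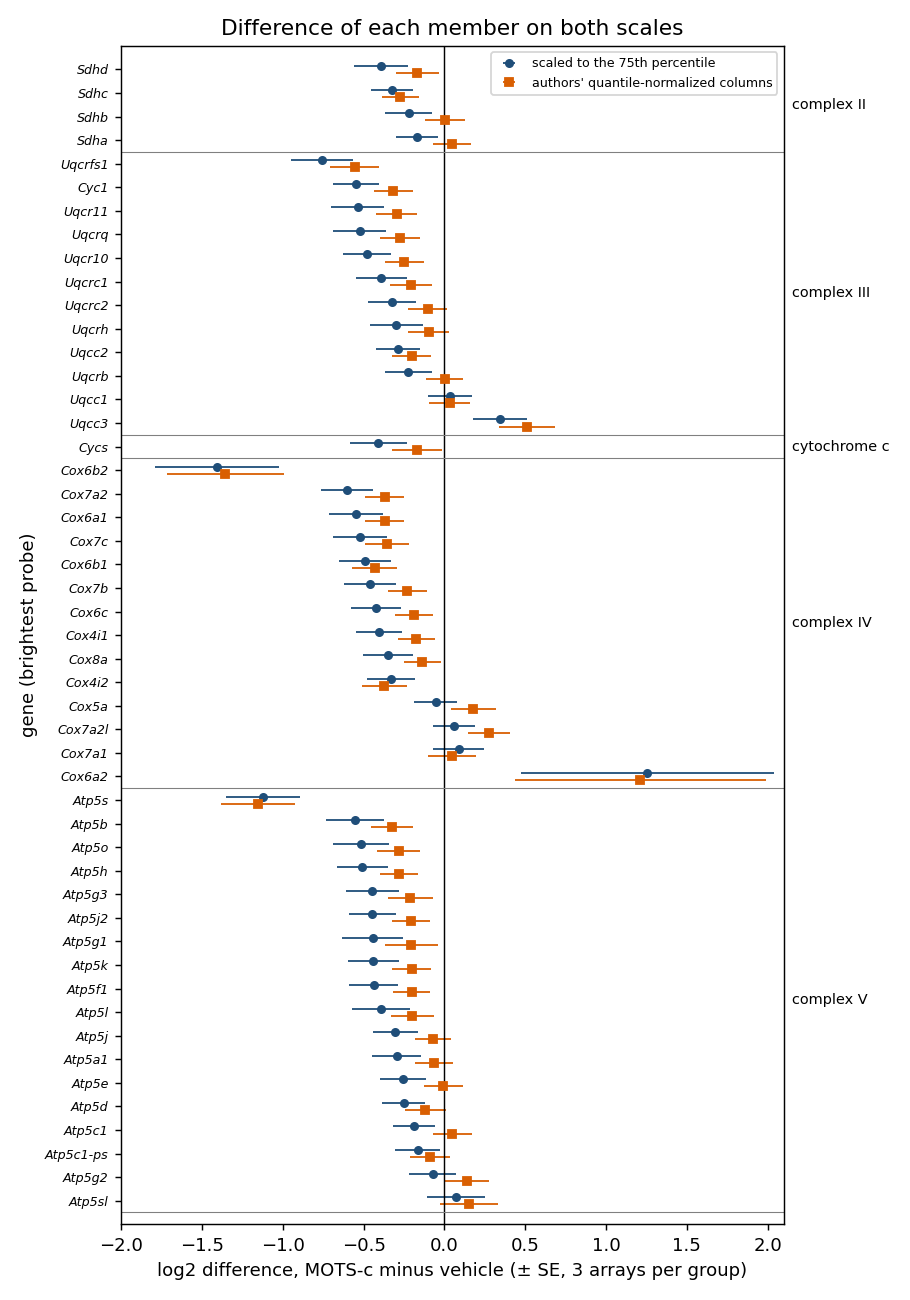
Difference of each member, MOTS-c minus vehicle in log2 units with its SE from limma (3 arrays per group), scaled to the 75th percentile (circles) and in the authors' quantile-normalized columns (squares). Most squares lie nearer to 0 than the circles, with a median of -0.20 against -0.39, and 6 members lie below 0 as circles and above 0 as squares.

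The MOTS-c and vehicle arrays overlapped in every comparison of a complex with another. Median differences were -0.27 in complex II, -0.36 in complex III, -0.41 in complex IV and -0.42 in complex V. The mean of the members' deviations was highest on vehicle 1 in all 4 complexes, at 0.26, 0.30, 0.19 and 0.36 for complexes II to V. It was lowest on MOTS-c 3, at -0.23, -0.25, -0.24 and -0.28. In each complex all 3 MOTS-c means were below all 3 vehicle means, except for complex II in the quantile-normalized columns, where the groups overlapped. When the mean of one complex was set against that of another within each array, the 6 pairs had differences between groups from -0.03 to 0.10, and in 6 of 6 pairs the MOTS-c and vehicle arrays overlapped. The complex IV means include the value of Cox6a2 on vehicle 1. Its 9 ubiquitous subunits alone had means of 0.41, 0.10 and 0.14 with vehicle and -0.22, -0.11 and -0.30 with MOTS-c. In a comparison chosen after seeing the data, with these in place of all 14 genes, the differences between groups were 0.15 for complex II minus complex IV, 0.09 for complex III minus complex IV and -0.05 for complex IV minus complex V, and the groups overlapped in all 3. Among the first 6 pairs, complex II minus complex V was -0.10, 0.01 and -0.05 with vehicle and 0.11, -0.01 and 0.05 with MOTS-c.

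**Figure D4:**
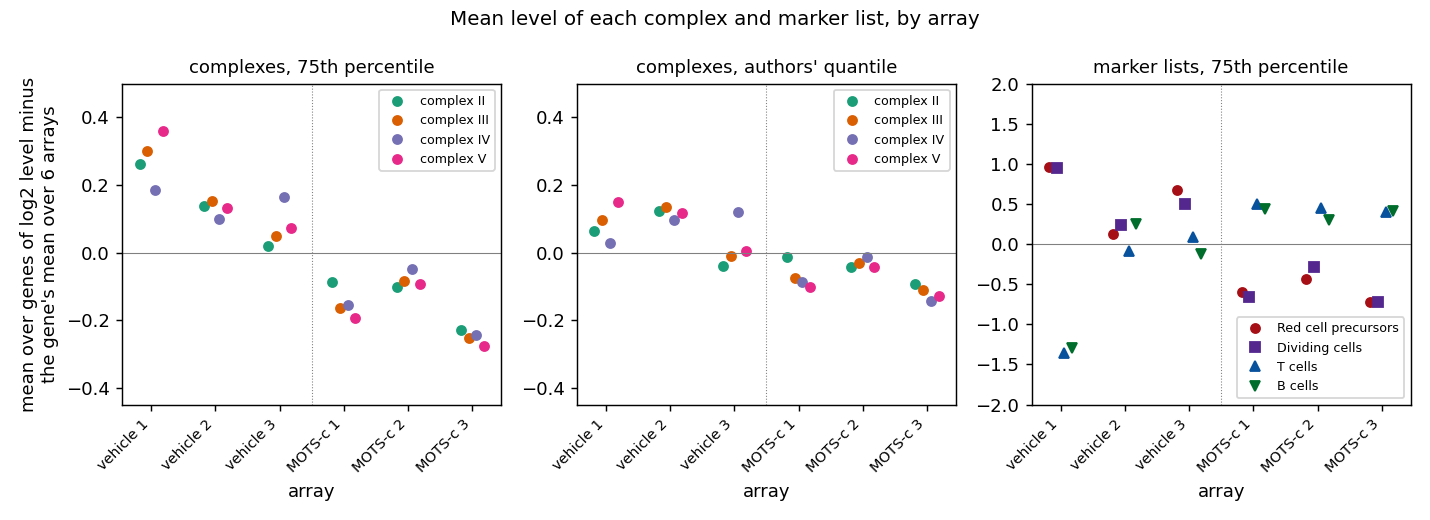
Mean over genes of the log2 level minus the gene's mean over the 6 arrays, for each array: complexes II to V scaled to the 75th percentile (left), the same in the authors' quantile-normalized columns (middle), and marker lists of red cell precursors, dividing cells, T cells and B cells (right, on a wider axis). Each complex is lower on every MOTS-c array than on every vehicle array on the left, complex II overlaps in the middle, and on the right the red cell and dividing cell lists are also lower on every MOTS-c array.

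The size of these differences depended on the scale. In the authors' quantile-normalized columns, 37 members were lower and 12 higher, where 45.4% of 20903 genes were lower, and the median member difference was -0.20 against 0.04 over all genes. All 3 MOTS-c values lay below vehicle in 24 members (16.4% of all genes), the same 24 that are among the 37 of the first scale. At an unadjusted p under 0.05, limma had 12 members lower, against 13.3% of genes, and 1 higher, against 12.4%. It had 0 members and 0% of genes at an adjusted p under 0.05. Medians by complex were -0.08 in complex II, where 2 of 4 genes were lower, -0.20 in complex III, -0.21 in complex IV and -0.20 in complex V. Sdha, Sdhb, Uqcrb, Cox5a, Atp5c1 and Atp5g2 were lower on the first scale and higher here, by 0.0011 to 0.18. Uqcrfs1 at -0.56 ± 0.15, Cox6b2 at -1.36 ± 0.36 and Atp5s at -1.16 ± 0.23 kept most of their difference.

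Bright genes in general were lower with MOTS-c on the 75th percentile scale, and most members are bright. Among 1259 genes at a level of 4 to 6, the median difference was -0.20 and 42.4% had all MOTS-c values below vehicle, while the 24 members in that range had a median of -0.44. At a level above 6 the medians were -0.16 for 513 genes and -0.32 for 8 members, and at 2 to 4 they were -0.07 for 3437 genes and -0.25 for 9 members. For the 1203 genes brighter than the median member, the median was -0.16 on this scale and 0.04 in the quantile-normalized columns. Members thus had a lower median than all genes in each of these classes, and a lower one than bright genes in the quantile-normalized columns. That difference was not tested.

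**Figure D5:**
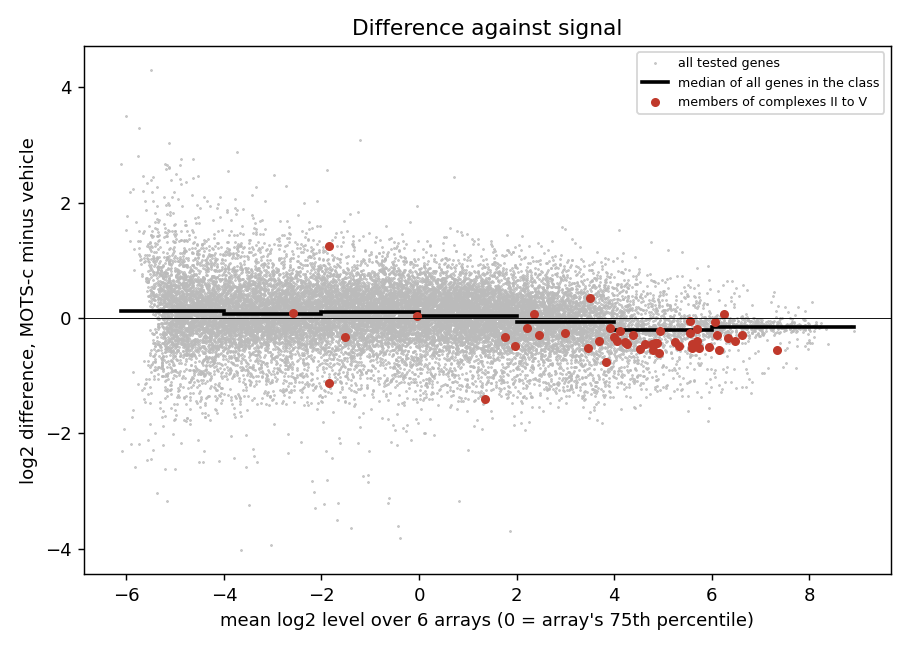
Difference of each tested gene (grey, MOTS-c minus vehicle in log2 units) against its mean level over the 6 arrays, scaled to the 75th percentile, with the median of all genes in each class of level (black lines) and the 49 members (red). Members at levels of 4 to 6 have a median of -0.44 where all genes of that class have -0.20.

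Slide and single arrays moved the values. Within the slide that holds both groups, where vehicle 3 is the only vehicle array, the median member difference was -0.23, with -0.16, -0.24, -0.33 and -0.22 for complexes II to V. By limma, 7 members (14.3%) were lower there at an unadjusted p under 0.05, against 11.4% of all genes. With slide as a block, limma had 1 member (2.04%) lower at that p, against 7.02% of all genes. Both member shares are near or below the background, where the share with neither step was 46.9% against 13.9%. Vehicle 3, alone in that slide, is assumed there to vary as the MOTS-c arrays do. Without vehicle 1 the median over members was -0.29.

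Marker genes of dividing cells and of red cell precursors, both found in mouse spleen, differed between the groups in the same direction. All 14 red cell precursor genes tested, such as Slc4a1 and Alas2, were lower with MOTS-c without overlap, against 18.6% of all genes. Their median was -1.24, or -1.33 within the slide that holds both groups. Their mean deviation was 0.96, 0.13 and 0.67 on the vehicle arrays and -0.60, -0.43 and -0.73 on the MOTS-c arrays. All 12 genes of dividing cells, such as Mki67 and Top2a, were lower too, with a median of -1.14, or -1.06 within that slide. Their means were 0.94, 0.23 and 0.49 against -0.66, -0.28 and -0.73. On the first scale, the vehicle arrays from highest to lowest were 1, 3, 2 in both lists. They were 1, 2, 3 in complexes II, III and V and 1, 3, 2 in complex IV. The order of the complexes depended on the scale. In the quantile-normalized columns it was 2, 1, 3 in complexes II and III and 3, 2, 1 in complex IV. The complex IV means include the low value of Cox6a2 on vehicle 1. The 9 ubiquitous subunits of complex IV alone had 0.19, 0.09 and 0.07 on vehicle 1, 2 and 3 in these columns, so the order 1, 2, 3. Complex V kept 1, 2, 3 there, and both lists kept 1, 3, 2. The part of these cells in the members' differences was not tested.

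Lymphocyte markers had the opposite direction, and vehicle 1 was the lowest array in the means of both lists. All 10 T cell genes were higher with MOTS-c, with a median of 0.89, or 0.38 within the slide that holds both groups, and means of -1.35, -0.09 and 0.09 against 0.51, 0.45 and 0.40. All 8 B cell genes were higher, with a median of 0.72, or 0.49 within that slide, and means of -1.29, 0.26 and -0.12 against 0.44, 0.30 and 0.42. MOTS-c lay above vehicle without overlap in 9 T cell genes (90%) and 3 B cell genes (37.5%), against 16.2% of all genes. All 8 neutrophil genes were also higher, with every gene overlapping between groups and a median of -0.27 within that slide. Red pulp macrophage genes were split, 4 lower and 3 higher, or 2 lower and 5 higher in the quantile-normalized columns. The 4 platelet genes were 0.10 to 0.32 higher, with a median of -0.42 within that slide. Of 4 muscle genes, Ckm and Myh1 were above background on 0 arrays and the other 2 were lower, with a median of 0.59 within that slide. The 5 genes of exocrine pancreas were lower with a median of -3.12, or -6.50 within that slide, their means ranging from -1.53 to 4.41 on the vehicle arrays and from -2.72 to 0.08 with MOTS-c. The part of these cells was likewise not tested.

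Genes that build or serve the complexes were compared with the subunits through 7 lists, in which 0 genes had an adjusted p under 0.05 by limma. Assembly factors of complex IV were split, with 11 of 21 lower and 10 higher and a median of -0.04. Limma gave an unadjusted p under 0.05 to 3 lower ones (14.3%), near the 13.9% of all genes. It gave that p to 2 higher ones, where 11% of all genes were higher. Cox11, which inserts copper into the catalytic core, read 2.39, 1.97 and 2.24 against 1.48, 1.54 and 1.43 (-0.71 ± 0.16, limma adjusted p = 0.0886). Sco2, a copper chaperone, had the opposite direction, at -0.71, -0.45 and -0.45 against 0.06, 0.07 and 0.08 (0.61 ± 0.14, limma adjusted p = 0.0909). Neither gene overlapped between groups. Of the factors of complex II, Sdhaf4 was lower and 3 genes higher, Sdhaf2 by 0.54 ± 0.26 and Sdhaf3 by 0.14 ± 0.13. Both tested factors of complex III were higher, Ttc19 by 0.24 ± 0.15 and Bcs1l by 0.16 ± 0.17, and Lyrm7 was well above background on 0 arrays. Sdhaf2, Sdhaf3, Ttc19 and Bcs1l each overlapped between groups. Within the slide that holds both groups, their differences were 0.0053, 0.15, 0.032 and -0.0093 in that order.

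The inhibitor of complex V had a larger difference than any subunit of it. Atpif1, which blocks ATP hydrolysis by the synthase, was at 7.77, 7.20 and 7.55 with vehicle and 6.52, 6.75 and 6.39 with MOTS-c, a difference of -0.96 ± 0.19 without overlap (limma adjusted p = 0.0880). Atpaf2, an assembly factor of F1, was 0.15 ± 0.14 higher.

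Regulators of respiratory genes had no common direction, with 6 of 11 lower and a median of -0.04. Nrf1, the factor that binds the core printed above, was at 2.85, 2.14 and 2.13 against 1.40, 1.54 and 1.47, a difference of -0.90 ± 0.22 without overlap (limma adjusted p = 0.0975). Esrra, a nuclear receptor of oxidative metabolism, was higher, at 2.48, 2.42 and 2.46 against 1.30, 1.99 and 2.01 with vehicle (0.68 ± 0.21, limma adjusted p = 0.136). Gabpa was at -0.13 ± 0.15 and Yy1 at 0.04 ± 0.18. Ppargc1a, a coactivator of mitochondrial genes, was well above background on 0 arrays.

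Enzymes of the tricarboxylic acid cycle, with pyruvate dehydrogenase, had the members' direction at a smaller size: 15 of 16 were lower, with a median of -0.21. In 7 (43.75%) they were lower without overlap, against 18.6% of all genes. That share was 29.8% of genes at a level of 2 to 4 and 42.4% at 4 to 6. At an unadjusted p under 0.05 limma had 5 lower (31.25%), against 13.9% of all genes and 17.8% of those above the 75th percentile. The second scale had 12 of 16 lower, with a median of -0.05. Pdhb was at 3.20, 2.72 and 2.85 against 2.43, 2.52 and 2.30 (-0.50 ± 0.17) and Dld at 2.11, 1.81 and 1.77 against 1.47, 1.54 and 1.36 (-0.44 ± 0.15). Of 6 carriers and channels, 5 were lower with a median of -0.30, Vdac1 by 0.52 ± 0.19 and Vdac3 by 0.41 ± 0.14. In the quantile-normalized columns 4 of 6 carriers and channels were lower, with a median of -0.07, and the list's mean, whose difference was 0.0031, overlapped between groups. Slc25a4, an adenine nucleotide carrier known from heart and muscle, was 0.37 ± 0.16 higher, with all 3 MOTS-c arrays above vehicle.

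Probes of a gene mostly shared a sign. Of 19 members with several probes, the probes of 16 all went the same way, and Sdha, Uqcrb and Atp5g3 had probes on both sides of 0. Over all 76 probes, 64 were lower, 52 of them without overlap, with a median of -0.39. Of all genes, 18.6% were lower without overlap, and no share over all probes is given here. Many of the 76 probes read the same gene, so their count is not separate from that of the 49 members. The authors' deposited table gives a p-value under 0.05 to 26 of the 76 probes, 25 of them lower with MOTS-c, where 7.9% of all its probes were lower at that p-value. The smallest adjusted p-value of a member in the authors' deposited table was 0.370. Only the probe of Atp5s reached both a 2-fold difference and that p-value in the authors' deposited table, with a signed fold of -2.23 and a p-value of 0.0276.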

How the data were processed

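Per the file headers, the scanner images were turned into spot intensities by Agilent Feature Extraction 11.0.1.1, whose processed signal is background-subtracted and not normalized between arrays. The authors' deposited table holds log2 values of these signals, which their distributions show to be quantile normalized, with a signed fold (a score) and a p-value with its adjustment. On the array with the lowest share, 99.6% of its signals equalled the scanner values within 0.001 log2 units.

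Outlier spots (97 to 145 per array) and controls were left out, and arrays were scaled to their 75th percentile (671 to 913). A gene was its brightest probe among those well above background throughout at least 1 group; of 56605 probes 17628 stayed unnamed and stood for themselves. Limma 3.58.1 in R 4.3.3 (lmFit, eBayes, two-sided, Benjamini-Hochberg over all genes, threshold 0.05) compared the groups and was tested on simulated data. The smallest p of an exact permutation test of 3 against 3 is 0.1, so none was run.

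Named members were all of complex II, Cyc1 and Cycs, the 4 lowest and 2 highest of each other complex, factors that are no subunits, restricted isoforms with their partners, genes with disagreeing probes, and the 2 smallest p-values of each pathway list; other genes were named after their values were seen. Members and lists were chosen with earlier results of these data known. Promoters are from RefSeq (GRCm38.p6); probe positions follow the mm9 array design, and their place in exons was not determined. Nothing in the labels says that samples came from separate mice, so p-values cover the spread between samples, which may be technical. Groups and numbers come from the titles, and descriptions of vehicle 3 and MOTS-c 3 carry other numbers. Alternatives were quantile normalization, normexp (offset 50) on the median signal in place of the planned mean signal, median scaling, other filters and probe rules, a trended prior, slide, replicate number and each array left out.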

Additional observations from a re-analysis of the deposited data

How the results depend on the processing

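The median over members, -0.39, was -0.20 in the authors' columns, -0.19 after normexp and quantile normalization, and -0.20 after quantile normalization. In that order of settings, complex II had -0.083, -0.081 and -0.081, complex III -0.20, -0.20 and -0.20, complex IV -0.21, -0.20 and -0.21, and complex V -0.20, -0.15 and -0.20. Members with all MOTS-c values below vehicle then numbered 24, 22 and 24 in place of 37. Of all genes, 16.4% had this in the authors' columns, against 18.6% on the first scale. With slide as a block, and equally within slide 2, the medians were -0.23 over members and -0.16, -0.24, -0.33 and -0.22 for complexes II to V. Leaving out each array in turn gave -0.45 to -0.29 over members, the latter without vehicle 1. The medians were then -0.34 to -0.22 in complex II, -0.46 to -0.28 in complex III, -0.47 to -0.32 in complex IV and -0.46 to -0.29 in complex V. Each time 0 members were called, and 37 to 42 lay below. With an array fewer, groups separate more easily, so that count can only stay at 37 or rise. Without vehicle 1, 19.6% of all genes lay below. The cause of these shifts was not tested.

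Signs turned for single genes. Sdha was at 0.05 in the authors' columns, after normexp and after quantile normalization (0.047, 0.050 and 0.047), and at 0.019 as a mean of probes. Sdhb was at 0.0011 and 0.0030 and Uqcrb at 0.0022 and 0.0036 in the authors' columns and after quantile normalization. Atp5g2 was at 0.14, 0.13 and 0.14 in these settings and at 0.070 with slide as a block or within slide 2, where Cox7a1 was at -0.17. Uqcc1 was at -0.023 with median scaling, -0.020 without vehicle 3 and -0.015 without MOTS-c 1, and ranged up to 0.087 with other arrays left out. Atp5sl was at -0.027 without vehicle 1 and up to 0.23 without another array. The cause was not tested.

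The replicate numbers did not pair the samples, since same-numbered samples had correlations of -0.17, 0.03 and -0.07 in their deviations. With a replicate block, the median over members was -0.39, 0 members were called and the smallest adjusted p of a member by limma was 0.137. Genes called over all genes ranged from 0 to 649 over the settings, the 649 without vehicle 2, with 0 members among them in every setting. All spots used here were below saturation, and 5 members lay under the 75th percentile, where 3 arrays per group and signal near background limit precision.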
